A study of Mus musculus with 4 samples.

Results

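Imprinted genes were examined in Lin-LEPR+ SSPCs, the leptin receptor positive stromal fraction of mouse bone marrow that holds skeletal stem and progenitor cells. A list of 34 mouse genes known for expression from 1 parental copy was drawn up by name and not by expression, with 15 genes expressed from the maternal allele, 18 from the paternal allele and 1, Dhcr7l, with no allele assigned. Among the 33924 gene symbols of the annotation, 32 of the 34 were present, since Kcnq1ot1 and Dhcr7l are not in that release and their counts were not analysed here. Of these 32, 26 had more than 2 counts over the 4 libraries and were tested, and 20 had a mean of at least 1 CPM (counts relative to library size after TMM normalization). The libraries came from wild-type male C57Bl/6 mice aged 3 months (mature) or 24 months (elderly), 2 per age, and neither age received a treatment. Per the methods the RNA of each group came from a pool of 3 or 4 mice, whereas the library titles name single numbered mice. An SD over n = 2 therefore describes the spread between libraries, which may or may not be separate pools. The methods describe marrow cells sorted as negative for Ter119, CD31 and CD45 and positive for LEPR, whereas the sample labels name whole bone marrow. C57Bl/6 mice are inbred, so the reads cannot be assigned to a parent and every value is a total over both alleles.

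Genomic imprinting marks the maternal and the paternal copy of a gene differently in the germ line, mostly by DNA methylation at imprinting control regions, and the mark keeps 1 copy silent in the offspring. Imprinted genes lie in clusters that share a control region, and many act on growth, with paternally expressed genes often promoting it and maternally expressed genes often restraining it. Several of them have been studied as regulators of quiescence in tissue stem cells. The imprint of some genes, such as Grb10, Ube3a, Gnas, Gab1 and Cd81, is known in only some tissues or switches parent between them, and whether it is present in SSPCs was not measured.

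The zinc finger protein ZFP57 keeps imprints by binding the hexamer TGCCGC when it is methylated. This hexamer was looked for on both strands of promoter windows that run from 250 bases before to 50 bases after a RefSeq transcript start (build GRCm38.p6, not the build used for counting). It overlaps CG, which it contains. The windows below belong to the 3 genes with the lowest elderly-to-mature ratios among members of at least 1 CPM, with the CG-richest window shown for each gene, and capitals mark the hexamer or its complement GCGGCA.
Peg3, chr7:6730370-6730669, minus strand: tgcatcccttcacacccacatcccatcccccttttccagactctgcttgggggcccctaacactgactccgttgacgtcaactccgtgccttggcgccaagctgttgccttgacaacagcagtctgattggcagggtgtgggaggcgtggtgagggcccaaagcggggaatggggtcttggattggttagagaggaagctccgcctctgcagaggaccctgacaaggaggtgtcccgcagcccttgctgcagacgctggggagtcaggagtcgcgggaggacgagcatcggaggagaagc
Mest, chr6:30737800-30738099, plus strand: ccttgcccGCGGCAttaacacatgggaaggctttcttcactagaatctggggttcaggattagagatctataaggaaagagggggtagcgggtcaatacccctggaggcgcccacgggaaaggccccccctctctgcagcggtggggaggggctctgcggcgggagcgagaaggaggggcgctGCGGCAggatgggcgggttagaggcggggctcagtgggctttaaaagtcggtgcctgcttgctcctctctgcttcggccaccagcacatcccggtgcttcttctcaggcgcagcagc
Grb10, chr11:12037371-12037670, minus strand: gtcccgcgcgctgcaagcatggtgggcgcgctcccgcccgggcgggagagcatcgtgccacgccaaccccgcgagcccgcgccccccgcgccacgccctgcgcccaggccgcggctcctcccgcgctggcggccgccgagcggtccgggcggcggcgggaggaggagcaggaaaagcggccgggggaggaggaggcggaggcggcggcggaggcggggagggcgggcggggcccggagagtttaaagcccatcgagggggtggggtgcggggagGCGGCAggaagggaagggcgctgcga
The Mest window held 2 hexamers and 17 CG, the Grb10 window 1 hexamer and 45 CG, and the Peg3 window 0 hexamers and 13 CG. The windows lie at transcript starts and need not cover an imprinting control region. A window without the hexamer therefore does not show that the gene lacks it elsewhere. Over the 40 windows of the 28 members in the RefSeq table, 22.5% held the hexamer, against 11.6% of all 32851 windows. The members' windows were richer in CG, with a median of 14.5 against 7, and among all windows with at least that median of CG 24.7% held the hexamer. It stood in windows of 3 of 13 maternally expressed genes (Grb10, Meg3 and Zim1) and of 5 of 15 paternally expressed genes (Mest, Nap1l5, Nnat, Plagl1 and Snrpn).

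The libraries held between 10472117 and 15650518 counts. Where transcripts shared bases their reads were left uncounted, so a gene's value comes from its remaining, countable bases alone. The leptin receptor itself was counted at between 4107 and 6385 CPM in each library, and the summed level of 9 LEPR stromal markers was 29866 and 30485 CPM in mature and 18638 and 26823 CPM in elderly libraries. All 9 were lower on average in elderly libraries and 0 of them were called by edgeR (2 at an unadjusted p under 0.05, both lower). Markers of several other marrow cells were present and higher in elderly libraries. The erythroid list summed to 352 and 149 CPM in mature and 1072 and 1052 CPM in elderly libraries (7 of 9 tested called higher). The neutrophil list summed to 2126 and 1208 CPM and to 4633 and 4466 CPM (6 of 9 called higher). The B and plasma cell list (3 of 11 tested called higher) summed to 197 and 132 CPM and to 993 and 999 CPM, with Cd79b at 0. Ighm made up most of its elderly sums, at 802 and 818 CPM. Of the 11 genes tested in this list 3 were lower. Among these was Sdc1, at 76.6 and 62.9 CPM in mature and 42.2 and 55.5 CPM in elderly libraries, which was not called. The macrophage list (4 of 7 called higher) summed to between 26.2 and 88.3 CPM. The eosinophil, megakaryocyte and adipocyte lists overlapped between the ages, with 0 genes called. They summed to 316 and 25.6 CPM, then 143 and 139 CPM (eosinophil), and 13.5 and 225 CPM, then 92.4 and 169 CPM (megakaryocyte). The adipocyte sums were 40.0 and 53.3 CPM, then 67.2 and 46.2 CPM. The endothelial list summed to 24.2 and 35.4 CPM, then 43.5 and 41.1 CPM (1 of 6 tested called higher). In the T cell list 0 of 5 tested were called, all 5 with a positive fold change. In the chondrocyte list 1 was called higher and 1 lower. The osteoblast list summed to 7010 and 6386 CPM in mature and to 2142 and 4072 CPM in elderly libraries through 1 gene, Ibsp, which was called lower. The rest of that list summed to 413 and 476 CPM and to 696 and 736 CPM, with Col1a1 called higher. Their part in the results on imprinted genes was not tested. In such bulk libraries fewer cells of a type and less RNA per cell cannot be told apart.

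Of the 26 imprinted genes tested between the ages, 2 passed the test and both were lower in elderly libraries. These were Peg3 among the paternally expressed and Grb10 among the maternally expressed genes. The test was edgeR's quasi-likelihood test on counts summed per gene, with Benjamini-Hochberg adjustment over all 21340 genes tested and a threshold of 0.05 on the adjusted p. Over all genes this called 2.73%, 2.28% higher and 0.45% lower in elderly libraries. At an unadjusted p under 0.05, 6 members were lower (Peg3, Grb10, Mest, Asb4, Plagl1 and Zim1) and 0 were higher, against 3.64% and 7.61% of all genes tested. None of the tools and settings run called a member higher. An exact test at a set dispersion of 0.2, the test of the study's methods, called neither Peg3 nor Grb10 (edgeR adjusted p = 0.616 and 1.0). Before adjustment 2 members were under 0.05 in it, Peg3 (edgeR exact test p = 0.0441) and Zim1, and Grb10 was not (p = 0.139). The paper counted its genes at a p under 0.05 together with a fold-change cut and states no adjustment, so its threshold differs from the one used here.

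**Figure D1:**
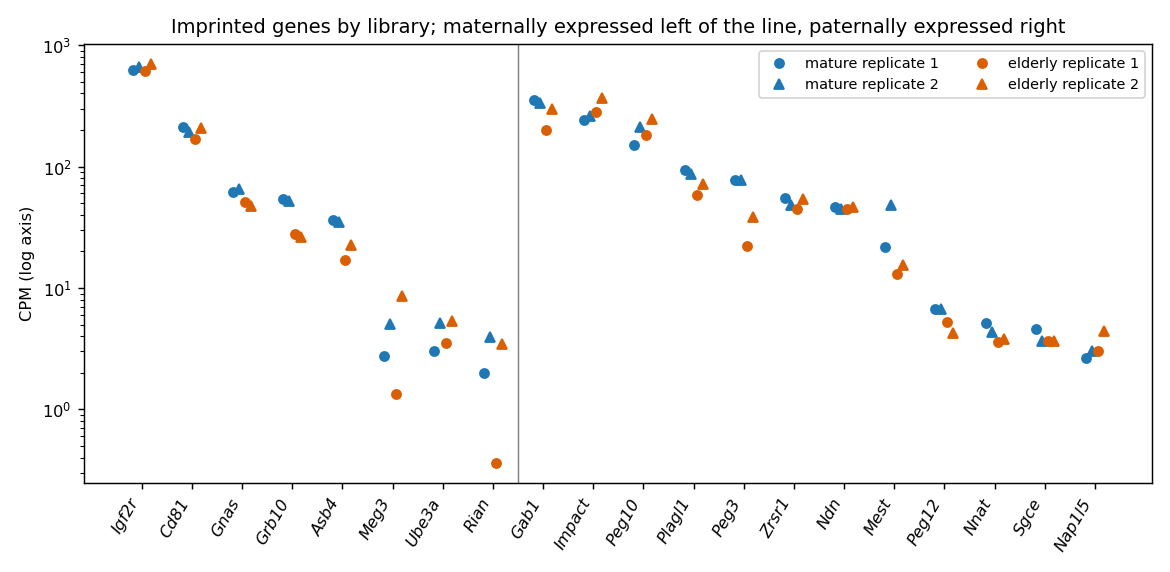
Level of each of the 20 imprinted genes with a mean of at least 1 CPM, in CPM on a log axis, with 1 point for each library (blue mature, orange elderly; circle replicate 1, triangle replicate 2). Levels run from at least 616 CPM for Igf2r to under 10 CPM for 7 genes in every library, and the elderly points of Peg3, Grb10, Asb4 and Mest lie below both mature points.

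Peg3 encodes a large zinc finger protein expressed from the paternal allele (chr7:6656603-6683132, minus strand, mm9). Mature libraries had 907 and 896 counts of it and elderly libraries 249 and 585. Both elderly libraries lay below both mature ones, at 22.4 and 38.6 CPM against 78.1 and 76.8 CPM, and they differed more from each other than the mature libraries did. The mean fell from 77.5 ± 0.871 to 30.5 ± 11.5 CPM (SD, n = 2 each), 2.54-fold, and the fitted log2 fold change was -1.34 ± 0.26 (SE; edgeR quasi-likelihood adjusted p = 0.0156). A protein-coding transcript, ENSMUST00000051209, held 64.8% of the counts, with 602, 548, 147 and 413 (here and below in the order mature replicates 1 and 2, elderly replicates 1 and 2), and a retained-intron transcript, ENSMUST00000155910, held the rest, with 305, 348, 102 and 172. Both fell when transcripts were tested singly with edgeR, by 1.23 ± 0.31 and by 1.40 ± 0.30 on the log2 scale (SE; adjusted p = 0.0415 and 0.0108). Without elderly replicate 1 the fold change was -1.02 and without elderly replicate 2 it was -1.79, and Peg3 was no longer called in either case. With 1 elderly library left, nearly all calls over all genes were lost too, so this says little about Peg3.

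The other member of the Peg3 domain is Zim1, a zinc finger gene listed as maternally expressed. Mature libraries had 6 and 11 counts and both elderly libraries had 0. Its mature mean was 3.12-fold above a floor of 3 counts per elderly library. That ratio is no strict lower bound, since the mature counts are few and carry counting error too. Zim1 was read on 968 countable bases, against 3519 in its longest transcript. It was not called by the quasi-likelihood test (edgeR adjusted p = 0.18). The exact test at a dispersion of 0.2 called it lower, as the only member (edgeR adjusted p = 0.0490), where it called 1.09% of all genes.

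Grb10 encodes an adaptor that dampens signalling from the insulin and IGF receptors (chr11:11830511-11938686, minus strand, mm9). Counts were 630 and 605 at 3 months and 307 and 397 at 24 months, or 54.2 and 51.9 CPM against 27.6 and 26.2 CPM. The ages were well apart and the libraries of each age close together. The mean fell from 53.1 ± 1.66 to 26.9 ± 0.980 CPM (SD, n = 2 each), 1.97-fold, with a log2 fold change of -0.98 ± 0.22 (SE; edgeR quasi-likelihood adjusted p = 0.0313). Leaving out any 1 of the 4 libraries ended the call, with fold changes between -1.06 and -0.94. Where an elderly library was left out, nearly all calls over all genes were lost too.

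Most of the Grb10 counts lay outside its coding transcripts. The processed transcript ENSMUST00000142877, which has 3019 of the gene's 4103 countable bases, held 78.3% of the counts, with 506 and 490 counts in mature and 235 and 288 in elderly libraries. It was called when transcripts were tested singly with edgeR (-1.05 ± 0.27, SE; adjusted p = 0.0435). The other 11 transcripts together had 124, 115, 72 and 109 counts, or 10.7 and 9.86 CPM in mature and 6.47 and 7.19 CPM in elderly libraries, a log2 ratio of -0.59. Without retained-intron, nonsense-mediated-decay and processed transcripts, a setting chosen after the data were seen, the gene's fold change was -0.66 and it was not called (edgeR adjusted p = 0.473).

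Mest, a paternally expressed gene for a protein with an alpha/beta hydrolase fold, had the second lowest ratio among members of at least 1 CPM but did not pass the test. It had 254 and 559 counts in mature and 145 and 234 in elderly libraries, or 21.9 and 47.9 CPM against 13.03 and 15.4 CPM. The elderly libraries were alike and the mature ones differed, and the gap between ages was smaller without mature replicate 2. The fold change was -1.29 ± 0.34 (SE; edgeR quasi-likelihood adjusted p = 0.0671), -0.66 without that library and -1.75 without mature replicate 1. DESeq2, which called 3.32% of all genes, called Mest lower (adjusted p = 0.0113) beside Peg3 and Grb10. Its counts were spread almost evenly over 3 transcripts, a processed one with 35.2%, a retained-intron one with 35.0% and a protein-coding one with 29.1%, and their fold changes were -1.34, -1.21 and -1.17.

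Asb4, which encodes an ankyrin repeat protein with a SOCS box and lies in the Peg10 and Sgce cluster, was the maternally expressed gene with the next lowest ratio. Its counts were 420 and 408 in mature and 191 and 343 in elderly libraries, or 36.2 and 35.0 CPM against 17.2 and 22.6 CPM. Both elderly libraries lay below both mature ones, and the fold change of -0.84 ± 0.25 (SE) did not pass (edgeR adjusted p = 0.119). Nearly all of its counts, 96.5%, fell on 1 protein-coding transcript.

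**Figure D2:**
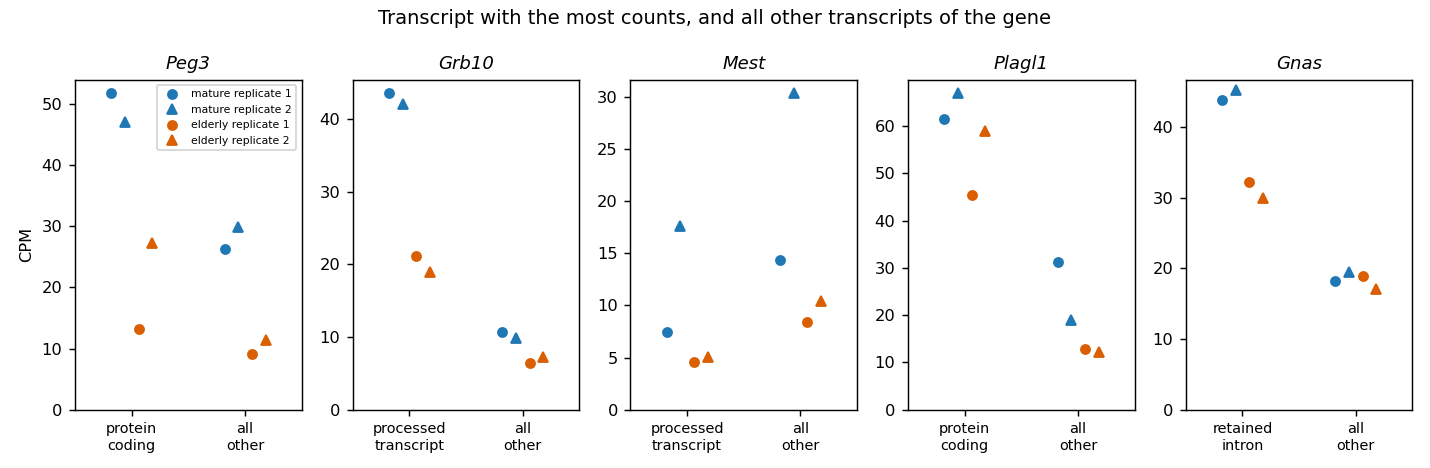
CPM per library of the transcript with the most counts of 5 imprinted genes, and of all other transcripts of that gene together (blue mature, orange elderly; circle replicate 1, triangle replicate 2; axes start at 0). Both parts of Peg3 are lower in elderly libraries, most of the Grb10 level and difference lies in a processed transcript, and in Gnas the retained-intron transcript is apart between ages while the rest overlaps.

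Gnas, the gene for the stimulatory G protein alpha subunit, showed a similar split. It had 720 and 755 counts in mature and 568 and 712 in elderly libraries, with a fold change of -0.37 ± 0.21 (SE; edgeR adjusted p = 0.572). Its retained-intron transcript ENSMUST00000129534 held 67.1% of the counts, with 509, 528, 358 and 454, whereas the protein-coding ENSMUST00000087871 had 163, 183, 191 and 212. Neither was called, and the fold change of the gene turned to 0.043 without retained-intron and processed transcripts. ENSMUST00000087871 was read on 1293 of its 3903 bases. Other protein-coding transcripts, such as ENSMUST00000109084 and ENSMUST00000109085, have 0 countable bases. Coding Gnas transcripts were therefore read only in part.

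Among the other paternally expressed genes, Plagl1 and Gab1 had lower levels in both elderly libraries. Plagl1, a zinc finger transcription factor that acts on other imprinted genes, had 1079 and 1004 counts in mature and 648 and 1080 in elderly libraries (-0.47 ± 0.21, SE; edgeR adjusted p = 0.411). Its main protein-coding transcript, with 76.0% of the counts, was at -0.25 ± 0.25 (SE), and its other transcripts summed to 31.3 and 19.04 CPM in mature and 12.8 and 12.2 CPM in elderly libraries. Gab1, a docking protein for receptor tyrosine kinases and the paternally expressed member with the highest CPM in mature libraries, had 4071 and 3924 counts in mature and 2220 and 4471 in elderly libraries (-0.47 ± 0.22, SE; edgeR adjusted p = 0.448). The spread between its elderly libraries, 199 and 295 CPM, was larger than that between its mature ones, 350 and 337 CPM.

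Impact, Peg10 and Nap1l5 had higher means in elderly libraries, and none passed the test. Impact, an inhibitor of the amino acid sensing kinase GCN2, had 2793 and 3045 counts in mature and 3118 and 5507 in elderly libraries (0.36 ± 0.20, SE; edgeR adjusted p = 0.586). The libraries of the ages did not overlap, at 240 and 261 CPM against 280 and 363 CPM. Peg10, derived from a retrotransposon, had 1764, 2466, 2006 and 3752 counts and overlapped between ages (0.24 ± 0.23, SE). Nap1l5, a nucleosome assembly protein family member, had 31, 35, 34 and 67 counts (0.40 ± 0.43, SE), a difference smaller than its SE.

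The remaining paternally expressed genes of at least 1 CPM were near 0 or slightly lower. Ndn, the MAGE family growth suppressor necdin, was the most even member, with 541, 521, 502 and 705 counts, or between 44.7 and 46.6 CPM in all 4 libraries (0.0060 ± 0.21, SE). Zrsr1, related to the splicing factor subunit U2AF35, had 643, 561, 497 and 825 counts (-0.061 ± 0.22, SE). Both of these genes overlapped between the ages. Peg12, of the FRAT family, had 78, 78, 58 and 64 counts (-0.51 ± 0.34, SE), Nnat, a small membrane protein of the endoplasmic reticulum, had 60, 51, 40 and 58 (-0.36 ± 0.38, SE), and Sgce, epsilon-sarcoglycan, had 53, 43, 41 and 55 (-0.17 ± 0.39, SE). In CPM these 3 had both elderly libraries below both mature ones, and 72.2% of the counts of Nnat and 100% of those of Sgce came from retained-intron or processed transcripts. Nnat and Zrsr1 lie within genes of the opposite strand, Blcap and Commd1. Because the strand setting of the counting is not given, their reads cannot be told apart from unspliced RNA of those genes.

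Of the maternally expressed genes of at least 1 CPM, Igf2r, which had the highest CPM, had the fold change nearest 0. This receptor, which clears IGF2 and sorts lysosomal enzymes, had 7298 and 7754 counts in mature and 6859 and 10597 in elderly libraries, or 628 and 665 CPM against 616 and 699 CPM (0.025 ± 0.19, SE). Airn, the paternally expressed antisense transcript of the same domain, had 467, 506, 385 and 525 counts. It was named after its values were seen, and because the strand setting of the counting is not given, reads of Airn and of unspliced Igf2r cannot be told apart. Cd81, a tetraspanin, had 2451, 2237, 1887 and 3125 counts (-0.10 ± 0.20, SE) and overlapped between the ages. Ube3a, a ubiquitin ligase, had 35, 60, 39 and 81 counts (0.12 ± 0.42, SE), read on only 187 countable bases.

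Of the noncoding RNAs of the Dlk1-Dio3 domain, Meg3 and Rian varied more between the elderly libraries than between ages. Meg3 had 32 and 59 counts in mature and 15 and 131 in elderly libraries, so the elderly libraries differed 6.41-fold in CPM (fold change between ages 0.38 ± 0.63, SE). Rian, the host of a snoRNA cluster, had 23 and 46 counts in mature and 4 and 52 in elderly libraries, with elderly libraries 9.55-fold apart (-0.60 ± 0.73, SE). In both genes mature replicate 2 and elderly replicate 2 were the higher libraries of their age. The sign of the change rested on 1 library, since Meg3 was at -1.53 without elderly replicate 2 and Rian at 0.20 without elderly replicate 1. Mirg, the host of a miRNA cluster, had 0, 3, 4 and 11 counts. Its elderly mean was 2.11-fold above the floor of 3 counts. That ratio is no lower bound, since mature replicate 2 itself had 3 counts. The fitted change did not pass (edgeR adjusted p = 0.691). Rtl1, a paternally expressed gene of the domain named after its values were seen, had 3, 8, 0 and 21 counts. The order of its libraries in CPM was that of Meg3. Rtl1 lies between Meg3 and Rian on the opposite strand. Because the strand setting is not given, its reads cannot be told apart from those of RNA of the other strand. Dlk1 and Dio3, the protein-coding genes that give the domain its name, had 0 counts in all libraries, on 908 and 162 countable bases. Their longest transcripts have 4653 and 2030 bases, so these counts say little about their expression.

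**Figure D3:**
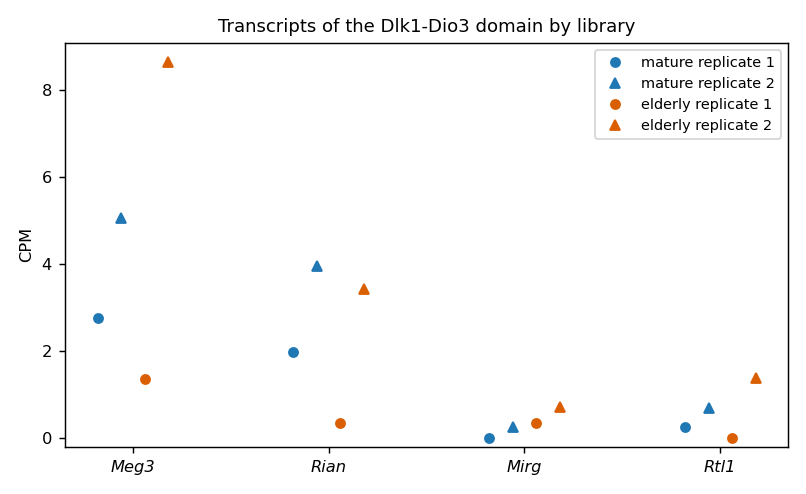
CPM in each of the 4 libraries of Meg3, Rian, Mirg and Rtl1 (blue mature, orange elderly; circle replicate 1, triangle replicate 2). Meg3 was highest in elderly replicate 2 at 8.64 CPM and lowest in elderly replicate 1 at 1.35 CPM, with the mature libraries in between.

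The other tested members lay under 1 CPM. Phlda2, a small pleckstrin homology-like protein that limits placental growth, had 6, 8, 17 and 4 counts. Snrpn (3, 1, 0 and 2), Slc22a18 (0, 0, 1 and 2) and Rasgrf1 (1, 0, 2 and 0) had 3 counts or fewer in every library. A change in these genes was not detectable at this depth. Snrpn and Slc22a18 were also read on few bases, 348 and 193, against 2076 and 1552 in their longest transcripts. Another 6 members had at most 2 counts in all and were not tested. Dlk1, Dio3, Kcnq1 and Ascl2 had 0 in each library, H19 had 1 count in elderly replicate 1 and Magel2 had 1 in mature replicate 2. Each 0 allows up to 3 counts, or between 0.198 and 0.270 CPM by library, and this covers counting error only. The countable sequence differed widely among them, from 100% of the longest transcript for Magel2 to 60 of 2286 bases for H19 and 7 bases for Ascl2. Dlk1, Dio3 and Kcnq1 had 908, 162 and 355 countable bases, against 4653, 2030 and 3029 in their longest transcripts. The counts of H19, Ascl2, Dlk1, Dio3 and Kcnq1 therefore say little about their expression.

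Levels were set side by side per kilobase of countable sequence for the 12 members of at least 1 CPM whose countable bases reach 90% of their longest transcript. These bases are summed over a gene's transcripts and need not lie in its main coding transcript. In Gnas a retained-intron transcript held 67.1% of the counts on 425 bases. In Peg3 such a transcript had 4528 of the 9275 bases. The values of both genes are therefore no levels of their coding transcripts. In mature libraries Igf2r (71.3 and 75.5 CPM per kb), Impact (70.0 and 76.1) and Gab1 (72.1 and 69.3) were highest and did not differ beyond their spread. Ndn and Peg10 followed at means of 27.6 and 27.3, then Zrsr1 at 16.8, Gnas at 14.3, Asb4 at 10.4 and Peg3 at 8.35. Peg12, Nap1l5 and Rian were lowest, at 2.54, 1.498 and 0.448 CPM per kb. In elderly libraries the order was Impact (93.7), Igf2r (74.6), Gab1 (50.9), Peg10 (32.1), Ndn (27.7) and Zrsr1 (16.1), followed by Gnas (11.1), Asb4 (5.79) and Peg3 (3.29).

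The maternally and paternally expressed genes were then compared as lists. Among the 12 maternally expressed genes tested, 6 had a positive and 6 a negative log2 fold change, with a median of -0.038 (-0.31 without elderly replicate 2). Of the 14 paternally expressed genes tested, 5 were positive and 9 negative, with a median of -0.27 (-0.44 without mature replicate 2). Over all genes tested the median was 0.016. Genes under the floor were then left out, and those with 1 age under it were set at their ratio to the floor. This gave medians of -0.10 over 11 maternally and -0.27 over 12 paternally expressed genes. Without members whose imprint is restricted to some tissues, the medians over all others tested were 0.20 over 8 genes and -0.27 over 12. At a mean of at least 1 CPM these were -0.29 over 4 and -0.17 over 11, so their order depended on genes under 1 CPM.

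Among members of at least 1 CPM the medians were closer, -0.24 over 8 maternally and -0.27 over 12 paternally expressed genes, against -0.0066 over all 14238 genes at that level. Of these 20 members, 10 had both elderly libraries below both mature libraries and 2 had both above. Over all genes of at least 1 CPM these shares were 20.8% and 22.8%. Of the 10, 3 were maternally expressed (Grb10, Asb4 and Gnas) and 7 paternally expressed (Peg3, Mest, Plagl1, Gab1, Peg12, Nnat and Sgce), and the 2 above, Impact and Nap1l5, were paternally expressed. Scaled by library size alone the counts were 9 and 2, and the shares over all genes 17.8% and 25.4%. Of the 20, 11 were lowest in elderly replicate 1, the library with the lowest LEPR stromal sum, against 26.1% of all genes at that level. The difference between the lists was not tested, since the members were chosen by name and share libraries.

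**Figure D4:**
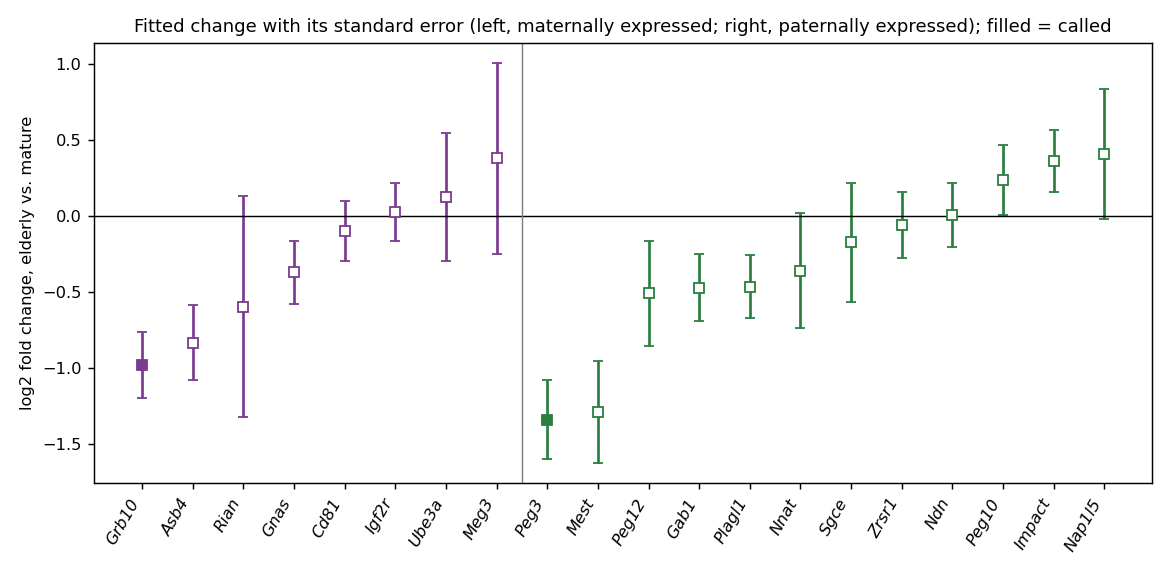
Log2 fold change of elderly vs. mature libraries with its SE for the 20 imprinted genes of at least 1 CPM, maternally expressed (purple) to the left and paternally expressed (green) to the right of the line. The 2 filled squares, Grb10 at -0.98 and Peg3 at -1.34, passed the test, and the open squares did not.

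Because the stromal markers were lower in elderly libraries, the members were also expressed relative to them, as CPM per 10000 CPM of the 9 LEPR stromal genes, a measure chosen after the data were seen and given without a test. Peg3 stood at 26.1 and 25.2 in mature and 12.0 and 14.4 in elderly libraries, and Grb10 at 18.2 and 17.0 against 14.8 and 9.77. The log2 ratios of the means were -0.96 and -0.52, and both genes stayed apart between ages on this measure. Asb4 stood at 12.1 and 11.5 against 9.21 and 8.44, and Mest at 7.32 and 15.7 against 6.99 and 5.76. Gab1 and Plagl1 were nearly level, with log2 ratios of -0.070 and -0.038. Of the 20 members 5 were apart on the low side (Gab1 among them, by little) and 8 on the high side, against 3.48% and 48.8% of all genes of at least 1 CPM.

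**Figure D5:**
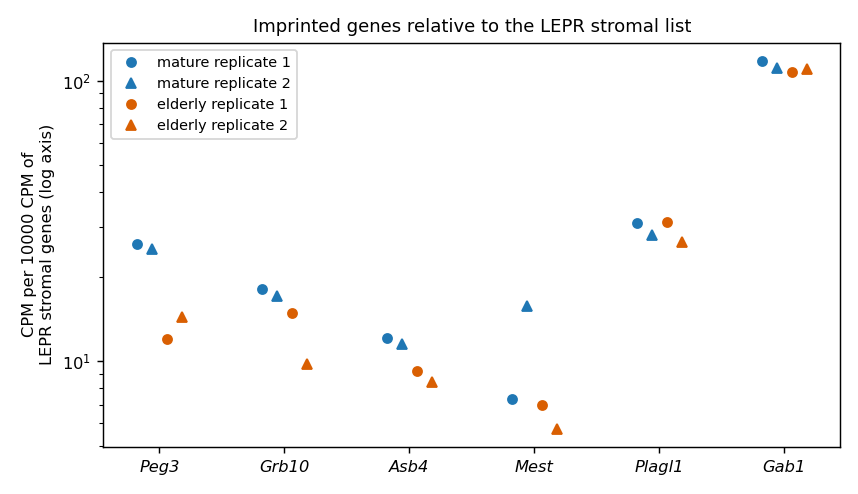
CPM of 6 imprinted genes per 10000 CPM of LEPR stromal markers in each library, on a log axis (blue mature, orange elderly; circle replicate 1, triangle replicate 2). Both elderly points of Peg3, at 12.0 and 14.4, lie below both mature points, at 26.1 and 25.2, whereas those of Gab1 lie close together.

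Other imprinted genes, a list of 45 that are not among the 34, were counted the same way. Of these, 42 were in the annotation (Zim3, Zfp264 and Peg13 were not, and were not analysed here) and 34 were tested, 14 with a positive and 20 with a negative fold change. Of these 34, 3 passed the test and all 3 rose in elderly libraries, where 2.73% of all genes were called, 2.28% higher. Gatm, the first enzyme of creatine synthesis, had 64 and 55 counts in mature and 338 and 320 in elderly libraries (2.33 ± 0.31, SE; edgeR adjusted p = 0.00158). Slc22a3, an organic cation transporter of the Igf2r domain, had 255, 251, 688 and 740 counts (1.35 ± 0.23, SE; edgeR adjusted p = 0.00789). Dcn, the proteoglycan decorin, had 282, 239, 557 and 769 counts (1.17 ± 0.23, SE; edgeR adjusted p = 0.0160). Imprinting of these 3 genes is known from the placenta. None of the 3 was called without elderly replicate 1 or without elderly replicate 2, and Dcn was not called without mature replicate 2. Fits with 1 elderly library lost nearly all calls over all genes, so a call lost there says little about these genes. Igf2 and Cdkn1c, named after their values were seen, had few counts, 5, 2, 4 and 22 for Igf2 and 17, 18, 29 and 22 for Cdkn1c. Cdkn1c has only 38 countable bases of 1931, so its counts say little about its expression.

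Genes that keep or read imprints were compared last. Of 12, 11 were tested, since Dppa3 had 0 counts in every library, and 8 had a positive and 3 a negative fold change. None was called by edgeR's quasi-likelihood test, with 2 at an unadjusted p under 0.05, and DESeq2 and the exact test also called 0. Hells was called higher under 4 alternatives, the robust quasi-likelihood fit, the replicate block, the transcript with the most counts and the setting without retained-intron and processed transcripts. Dnmt1, the maintenance DNA methyltransferase, had 1653, 1710, 2672 and 2799 counts (0.56 ± 0.20, SE; edgeR adjusted p = 0.259). Hells, a chromatin remodeller needed for DNA methylation, had 163, 171, 382 and 308 counts (0.93 ± 0.29, SE; edgeR adjusted p = 0.153). Both genes were higher in both elderly libraries, as were the 10 of 10 genes of a proliferation list, 4 of them called higher, whose sum was 373 and 160 CPM in mature and 1008 and 725 CPM in elderly libraries. The part of proliferating cells in these values was not tested. Zfp57, which binds the hexamer shown above, had 45, 24, 15 and 34 counts.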

How the data were processed

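RNA of Lin-LEPR+ bone marrow cells from mature and elderly mice was sequenced in 4 libraries, grouped by the titles of their labels. Per the methods, poly(A) RNA was selected for most samples, while some named samples were processed as total RNA. Those names do not match the titles, so whether any of the 4 libraries is among them is not clear. A difference in preparation between the ages could not be told apart from age. Its part in counts of retained-intron and processed transcripts was not tested. The authors trimmed reads with CutAdapt, aligned them to mm9 using HISAT2 and counted them with featureCounts, and the deposited values are raw counts per Ensembl transcript. Versions and the strand setting are not given in the sources used here. Each of the 25621 transcripts whose exonic bases all belong to other transcripts too was at 0 in all libraries.

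Counts were summed per gene symbol through GENCODE M1 (388 of 95883 transcripts, with at most 0.0888% of the counts, did not match). Genes with more than 2 counts in all were kept (21340), scaled by TMM (factors 0.969 to 1.06) and tested for age with edgeR 4.0.16 in R 4.3.3 (glmQLFit and glmQLFTest, 2-sided, Benjamini-Hochberg over all genes, common dispersion 0.0687). The study's own test, edgeR's exact test at a dispersion of 0.2, and DESeq2 1.42.0 were alternatives, as were other filters, scalings and features, the replicate number as a term, and each library left out. Fold changes use a prior count of 0.125. Whether the libraries of an age are separate pools of mice is not given, so p-values measure the spread between these libraries, which may be technical.

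Counts per library are given in the order mature replicate 1, mature replicate 2, elderly replicate 1 and elderly replicate 2. Counts in each library are given for members with a mean of at least 1 CPM or called. Of the related lists the called genes are named. Domain neighbours and genes near the threshold were added after their values were seen. The members and lists were chosen with earlier results of these data known. Promoter sequences are RefSeq's, build GRCm38.p6.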

Additional observations from a re-analysis of the deposited data

How the results depend on the processing

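Over the alternative values of 25 genes (the 20 members of at least 1 CPM, the 3 other imprinted genes called, Dnmt1 and Hells), 345 kept direction and side of the threshold, 12 passed it newly, 19 no longer passed it and 21 changed sign. Peg3 and Grb10 were both called under DESeq2 and under every filter, scaling and dispersion setting of the quasi-likelihood test run, except that Grb10 was not called without retained-intron and processed transcripts. The exact test called neither (adjusted p = 0.616 and 1.0). It called 1 imprinted gene, Zim1, which is not among the 25, and 0 of the other imprinted genes (4 at an unadjusted p under 0.05). The robust fit, which called 4.25% of all genes, called 4 imprinted genes and 1 imprint maintenance gene. The replicate number did not pair the libraries (correlation of replicate differences between ages 0.0442 over 14238 genes). With the replicate block, which called 5.91% of all genes, 4 imprinted genes (Peg3, Grb10, Mest and Asb4) and 1 maintenance gene (Hells) were called. Without retained-intron and processed transcripts 1 imprinted gene (Peg3) and 1 maintenance gene (Hells) were called, and 1 maintenance gene with the transcript of most counts. Leaving out 1 library gave between 0 and 2 imprinted genes, between 0 and 3 other imprinted genes and 0 maintenance genes. The imprinted genes had 0 calls without elderly replicate 1 (6 at an unadjusted p under 0.05) and without elderly replicate 2 (7), where 40 and 0 of all genes were called (1959 and 1637 at an unadjusted p under 0.05). A single remaining library was assumed to vary like the other age.

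The median of maternally expressed genes, -0.038, was -0.26 under filterByExpr and between -0.31 and 0.017 with 1 library left out. Without members of restricted imprinting this median was 0.20, and -0.29 over the 4 genes left that had at least 1 CPM. That of paternally expressed genes, -0.27, was -0.13 with the transcript of most counts, -0.38 without retained-intron and processed transcripts and between -0.44 and -0.21 with 1 library left out. Signs changed for the following genes, and the cause was not tested. Without retained-intron and processed transcripts Gnas was at 0.043, Igf2r at -0.0096 and Ndn at -0.032. Under filterByExpr Igf2r was at -0.0012 and Ndn at -0.021. Ndn was at -0.0094 with DESeq2, -0.012 without a filter and -0.0076 with protein-coding genes only. Sgce was at 0.068 in its transcript of most counts. With 1 library left out, Meg3 ranged from -1.53 to 1.13, Rian from -3.01 to 0.20, Igf2r from -0.070 to 0.097, Ndn from -0.067 to 0.036, Ube3a from -0.22 to 0.52, Peg10 from -0.012 to 0.45, Cd81 from -0.25 to 0.017 and Zrsr1 from -0.21 to 0.057. Depth limited the genes under 1 CPM, and so did few countable bases for some of them, such as Slc22a18 with 193 and Snrpn with 348.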
